A study of Drosophila melanogaster with 11 samples.

Results

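The genes described here are those that the mitochondrial genome of Drosophila melanogaster itself carries. They were taken as every row of the expression tables whose FlyBase identifier has a symbol that begins with mt:, a rule that uses no measured value, and it found 38 of the 17753 genes in the tables: 13 protein genes, 2 ribosomal RNA (rRNA) genes, 22 transfer RNA (tRNA) genes and the control region mt:ori. The libraries were polyA mRNA-seq of whole wild-type Oregon-R embryos with no treatment beyond removal of the chorion in bleach, collected 2-4 h (3 libraries), 14-14.5 h (2 libraries), 14-17 h (4 libraries) and 17-17.5 h (2 libraries) after egg deposition. The study's methods state independent embryo collections on different days. Every library is a pool of whole embryos, so fewer cells of a type and less RNA per cell cannot be told apart. The methods name a pair of sequencer models without saying which library ran on which, so a sequencing batch and the window cannot be told apart.

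Mitochondria keep a small circular genome whose protein genes all encode subunits of the respiratory chain and of ATP synthase, which sit together with many more subunits encoded in the nucleus. Both strands are transcribed into long precursors by a single RNA polymerase, PolrMT. The tRNAs that lie between most genes are cut out of these precursors and so release the messenger and ribosomal RNAs, most of which then carry short polyA tails. The fly egg is loaded with maternal mitochondria, which the early embryo divides among its cells.

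On the dm6 mitochondrial sequence, 9 protein genes lie on the plus strand and 4 on the minus strand, and none of them has an intron. The plus-strand genes in order are mt:ND2 at bases 240 to 1263, mt:CoI at 1474 to 3009, mt:CoII at 3083 to 3767, mt:ATPase8 at 3907 to 4068, mt:ATPase6 at 4062 to 4736, mt:CoIII at 4736 to 5524, mt:ND3 at 5608 to 5961, mt:ND6 at 9971 to 10495 and mt:Cyt-b at 10499 to 11635. The minus-strand genes are mt:ND5 at 6409 to 8125, mt:ND4 at 8207 to 9545, mt:ND4L at 9545 to 9835, mt:ND1 at 11721 to 12659, the large rRNA mt:lrRNA at 12735 to 14058 and the small rRNA mt:srRNA at 14131 to 14916. mt:ATPase8 and mt:ATPase6 overlap by 7 bases, mt:ATPase6 and mt:CoIII by 1 base and mt:ND4 and mt:ND4L by 1 base, and 3 bases separate mt:ND6 from mt:Cyt-b on the same strand. The library kit does not mark the strand, so reads of a gene and of transcripts antisense to it cannot be told apart.

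Of the 38 genes, 15 had any count. None of the 1048 genes shorter than 191 bases in the tables had a count in any library, nuclear genes included, against 90.0% of the 16475 genes over 300 bases. mt:ATPase8, a subunit of ATP synthase of 162 bases, and all 22 tRNA genes, of 61 to 73 bases, fell in that range and stood at 0 in every library. Their zeros give no level and no bound. The control region mt:ori held between 0 and 7 counts per library. The remaining 14 genes were measured, 12 of the 13 protein genes among them, and only 1 of their 154 estimated counts lay more than 0.001 from a whole number, that is, hardly any read was shared out between them and other genes.

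The libraries held between 14472809 and 38904916 estimated counts, replicate 2 of 2-4 h being the shallowest, and a count of 3 corresponds to between 0.0771 and 0.207 CPM (counts per 1000000 estimated counts of the library). The stage labels were checked with marker genes. The summed level of the early markers eve, ftz, bcd, twi, sna and zen was between 537 and 631 CPM at 2-4 h and between 39.2 and 74.7 CPM later. The summed level of the late markers Mhc, brp, Mlp60A, Cpr49Ae, Cpr65Av and TwdlM was between 21.1 and 69.4 CPM at 2-4 h and between 8135 and 14198 CPM later. Eggshell genes summed to less than 1 CPM everywhere, between 0.222 and 0.906 CPM. Nuclear rRNA, which has no polyA tail and passes the selection as carry-over, was uneven, at 3441 to 9912 CPM at 2-4 h, 4207 to 11605 CPM at 14-14.5 h, 15646 to 46515 CPM at 14-17 h and 8425 to 15869.6 CPM at 17-17.5 h. Other RNAs normally without a polyA tail ordered the windows differently. Replication-dependent histone genes summed to 1054 to 1138 CPM at 2-4 h and 13.9 to 47.3 CPM later. Small nuclear RNA genes summed to 2.17 to 2.37 CPM at 2-4 h, 0.430 to 0.946 CPM at 14-14.5 h, 0.797 to 2.08 CPM at 14-17 h and 0.246 to 0.533 CPM at 17-17.5 h.

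Mitochondrial genes took between 5.10% and 10.1% of all estimated counts in a library, and most of that was a single gene, mt:lrRNA. The protein genes together took 1.86%, 2.65% and 1.86% of the counts in the 2-4 h libraries, 2.78% and 2.35% in those of 14-14.5 h, 2.05%, 1.99%, 2.24% and 2.07% in those of 14-17 h, and 2.65% and 2.71% in those of 17-17.5 h. The means were 2.12% ± 0.454 (SD, n = 3), 2.56% ± 0.300 (n = 2), 2.09% ± 0.107 (n = 4) and 2.68% ± 0.0461 (n = 2) in the same order. The protein gene share in replicate 2 of 2-4 h lay between the 2 libraries of 14-14.5 h and above every 14-17 h library, so the early window overlapped these 2 windows, and it equalled the lower library of 17-17.5 h after rounding. The 14-17 h libraries lay below every 14-14.5 h and 17-17.5 h library, although their window contains the first of these and ends where the second begins.

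The rRNA share set the windows apart more clearly. It came to 6.07%, 7.40% and 5.37% in the 2-4 h libraries, 3.03% and 2.75% in those of 14-14.5 h, 5.26%, 5.50%, 6.03% and 4.75% in those of 14-17 h, and 3.01% and 2.89% in those of 17-17.5 h. Mean shares were 6.28% ± 1.03 (SD, n = 3), 2.89% ± 0.197 (n = 2), 5.38% ± 0.534 (n = 4) and 2.95% ± 0.0801 (n = 2) in time order. The narrow late windows overlapped each other and lay below every library of 2-4 h and of 14-17 h, which in turn overlapped. Because these are sums over genes chosen as a group, they are given without a test.

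In TPM, the deposited transcript level (counts divided by gene length and then scaled to a fixed sum), the protein genes took on average 6.25%, 8.55%, 6.27% and 8.63% and the rRNAs 12.8%, 6.19%, 11.3% and 6.03% in the 4 windows in time order. The protein gene share of TPM was 7.85% or more in every narrow late library and at most 7.71% in the 2-4 h libraries, which did not overlap on this scale. The tables divide nuclear genes by their whole span, introns included: for 12481 of 12564 genes with introns the tabulated length equalled the span, which lowers their TPM relative to the intronless mitochondrial genes. With the exonic length in its place, the protein genes took 4.45%, 5.85%, 4.32% and 5.95%, and the rRNAs 9.09%, 4.24%, 7.81% and 4.16%. The protein gene share then overlapped between 2-4 h and 14-14.5 h, with 5.55% in replicate 2 of 2-4 h and 5.34% in replicate 2 of 14-14.5 h. The 17-17.5 h libraries, at 5.91% and 5.98%, still lay above every 2-4 h library. The ratio of summed TPM of rRNA genes over protein genes, which no nuclear gene enters, ranged over 1.92 to 2.26 in the 2-4 h libraries, 0.702 to 0.750 in those of 14-14.5 h, 1.59 to 1.93 in those of 14-17 h and 0.681 to 0.718 in those of 17-17.5 h. In summed TPM the protein genes thus exceeded the rRNA recovered by the polyA selection in the narrow late windows, and that rRNA exceeded them in the other windows. In estimated counts the rRNA exceeded the protein genes in every library. The ratio of counts was 1.09 to 1.17 at 14-14.5 h and 1.07 to 1.14 at 17-17.5 h.

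**Figure D1:**
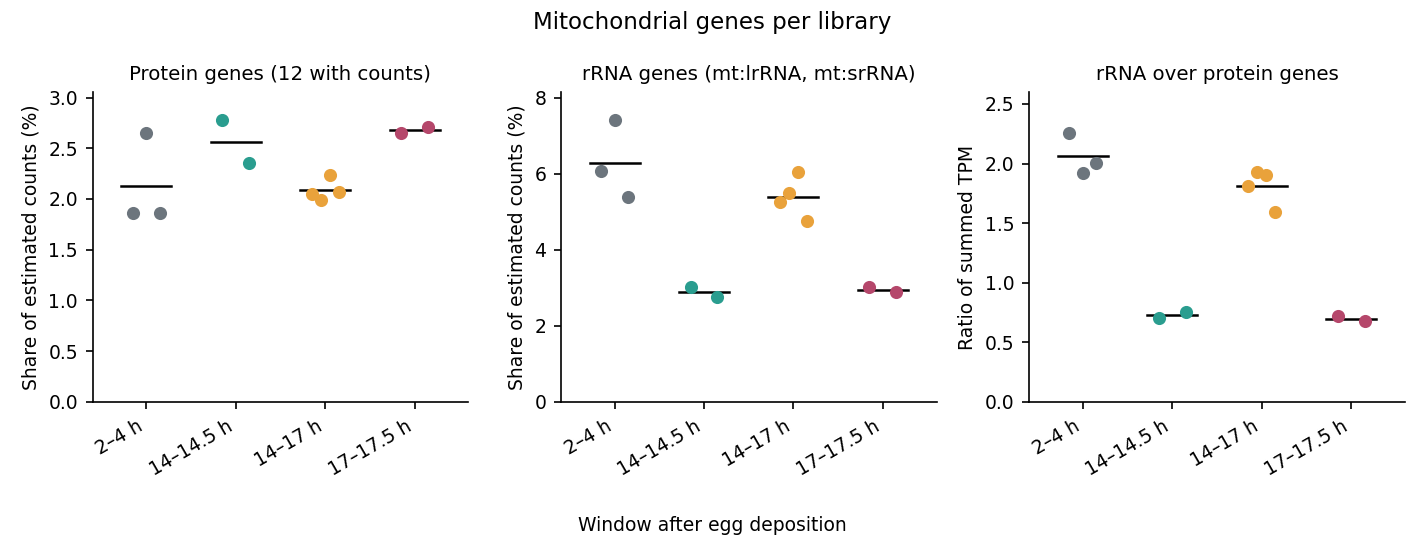
Share of all estimated counts taken by the mitochondrial protein genes (%, left) and rRNA genes (%, middle), and the ratio of summed TPM of rRNA over protein genes (right), by window, with a point per library and a bar at the mean. The rRNA share lies between 2.75% and 3.03% in both narrow late windows and between 4.75% and 7.40% in the 2-4 h and 14-17 h libraries.

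Levels between genes were compared in TPM, which is per length. mt:lrRNA ranked 1st of all 17753 genes in every library and mt:CoIII ranked 2nd or 3rd. mt:CoI stood between ranks 3 and 11, mt:Cyt-b between 5 and 13, mt:CoII between 6 and 15, mt:ATPase6 between 6 and 21, and mt:ND1 between 10 and 105. At the other end, mt:ND6 stood between ranks 2178 and 11943, mt:ND2 between 1256 and 9417, mt:ND4L between 862 and 8402 and mt:srRNA between 492 and 5793. These ranks set intronless genes against nuclear genes divided by their span, and the TPM of mt:ND4L rests on an effective length of only 92.1 bases.

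Among the 14 measured genes the order of mean TPM began with mt:lrRNA and mt:CoIII and ended with mt:ND6 in all 4 windows. At 2-4 h the order between them was mt:CoI, mt:Cyt-b, mt:CoII, mt:ATPase6, mt:ND5, mt:ND1, mt:ND4, mt:ND3, mt:ND4L, mt:ND2 and mt:srRNA, and 9 neighbouring pairs in the whole order had overlapping libraries. Both narrow late windows had mt:Cyt-b, mt:CoI, mt:ND1, mt:CoII, mt:ATPase6, mt:ND4, mt:ND5, mt:ND3, mt:srRNA, mt:ND4L and mt:ND2 in between, with 3 overlapping pairs at 14-14.5 h and 0 at 17-17.5 h, where each window has only 2 libraries. At 14-17 h the order in between was mt:CoI, mt:CoII, mt:Cyt-b, mt:ATPase6, mt:ND1, mt:ND4, mt:ND5, mt:ND3, mt:srRNA, mt:ND2 and mt:ND4L, with 4 overlapping pairs. The mean TPM of the highest gene over that of the lowest was 4065, 46653, 26198 and 275302 in the 4 windows in time order, the last resting on 1 count of mt:ND6 in each library.

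Window comparisons of single genes were made with edgeR's quasi-likelihood test, fitted over all genes with the trimmed-mean (TMM) scaling and adjusted by the Benjamini-Hochberg method, and a gene was called at an adjusted p under 0.05. Called here means changed relative to the other genes of the embryo. Nearly every gene differed between early and late embryos: of the 11556 genes tested, 46.7% were called higher and 43.3% lower at 14-14.5 h than at 2-4 h. Against this, 2 of the 12 protein genes tested were called higher and 7 lower in that comparison. At 17-17.5 h against 2-4 h, 2 of 12 were higher and 6 lower, with 49.2% and 42.3% of 11633 genes as the background. At 14-17 h against 2-4 h, 1 of 12 was higher and 5 lower, with 48.2% and 42.4% of 11623 genes as the background. These 3 comparisons share the 2-4 h libraries. The median log2 fold change of the protein genes was -0.87, -0.40 and -0.20 in the 3 comparisons in the order given, and that of all genes tested was 0.11, 0.27 and 0.19. Each gene counts equally in these medians, however few its counts.

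The 7 complex I genes encode membrane subunits of NADH dehydrogenase, the entry point of electrons from NADH. mt:ND1 stood at 466, 709.9 and 448 CPM at 2-4 h, 3052 and 1991 CPM at 14-14.5 h, 605, 705, 674 and 558 CPM at 14-17 h, and 2534 and 2592 CPM at 17-17.5 h. Its narrow late libraries lay far above all others, and its 2-4 h and 14-17 h libraries overlapped. mt:ND1 rose 4.92-fold at 14-14.5 h against 2-4 h (log2 fold change 2.30 ± 0.224 SE, n = 2 and 3, adjusted p = 1.3e-05, edgeR's quasi-likelihood test). At 17-17.5 h it rose 6.17-fold against 2-4 h (log2 fold change 2.63 ± 0.225, n = 2 and 3, adjusted p = 3.73e-05, edgeR's quasi-likelihood test). At 14-17 h against 2-4 h its log2 fold change was 0.29 and the call was not made (adjusted p = 0.0633, edgeR), although it was without replicate 2 of 2-4 h, at 0.45 (adjusted p = 0.00251).

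The other 6 complex I genes were lower in both narrow late windows than at 2-4 h. mt:ND2 stood at 27.2, 43.4 and 20.8 CPM at 2-4 h, 0.919 and 0.860 CPM at 14-14.5 h, 5.81, 5.79, 6.85 and 10.8 CPM at 14-17 h, and 1.32 and 0.752 CPM at 17-17.5 h. The narrow late libraries, the 14-17 h libraries and the 2-4 h libraries formed 3 separate levels in rising order. The narrow late levels rest on few reads, 31 and 28 counts at 14-14.5 h and 43 and 24 counts at 17-17.5 h. mt:ND2 was 31.9-fold lower at 14-14.5 h (log2 fold change -5.00 ± 0.342, adjusted p = 1.24e-06), 22.1-fold lower at 17-17.5 h (-4.47 ± 0.465, adjusted p = 0.000104) and 3.92-fold lower at 14-17 h (-1.97 ± 0.269, adjusted p = 5.34e-05), each against 2-4 h by edgeR's quasi-likelihood test.

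mt:ND3 had the same order of windows. Its level was 85.8, 114 and 70.5 CPM at 2-4 h, 6.85 and 4.88 CPM at 14-14.5 h, 53.3, 35.9, 55.9 and 28.2 CPM at 14-17 h, and 7.44 and 7.46 CPM at 17-17.5 h. Against 2-4 h it was 14.6-fold lower at 14-14.5 h (log2 fold change -3.87 ± 0.228, adjusted p = 4.79e-07), 9.23-fold lower at 17-17.5 h (-3.21 ± 0.253, adjusted p = 2.39e-05) and 2.00-fold lower at 14-17 h (-0.997 ± 0.232, adjusted p = 0.0022, edgeR's quasi-likelihood test). Its libraries fell into the same 3 levels without overlap.

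**Figure D2:**
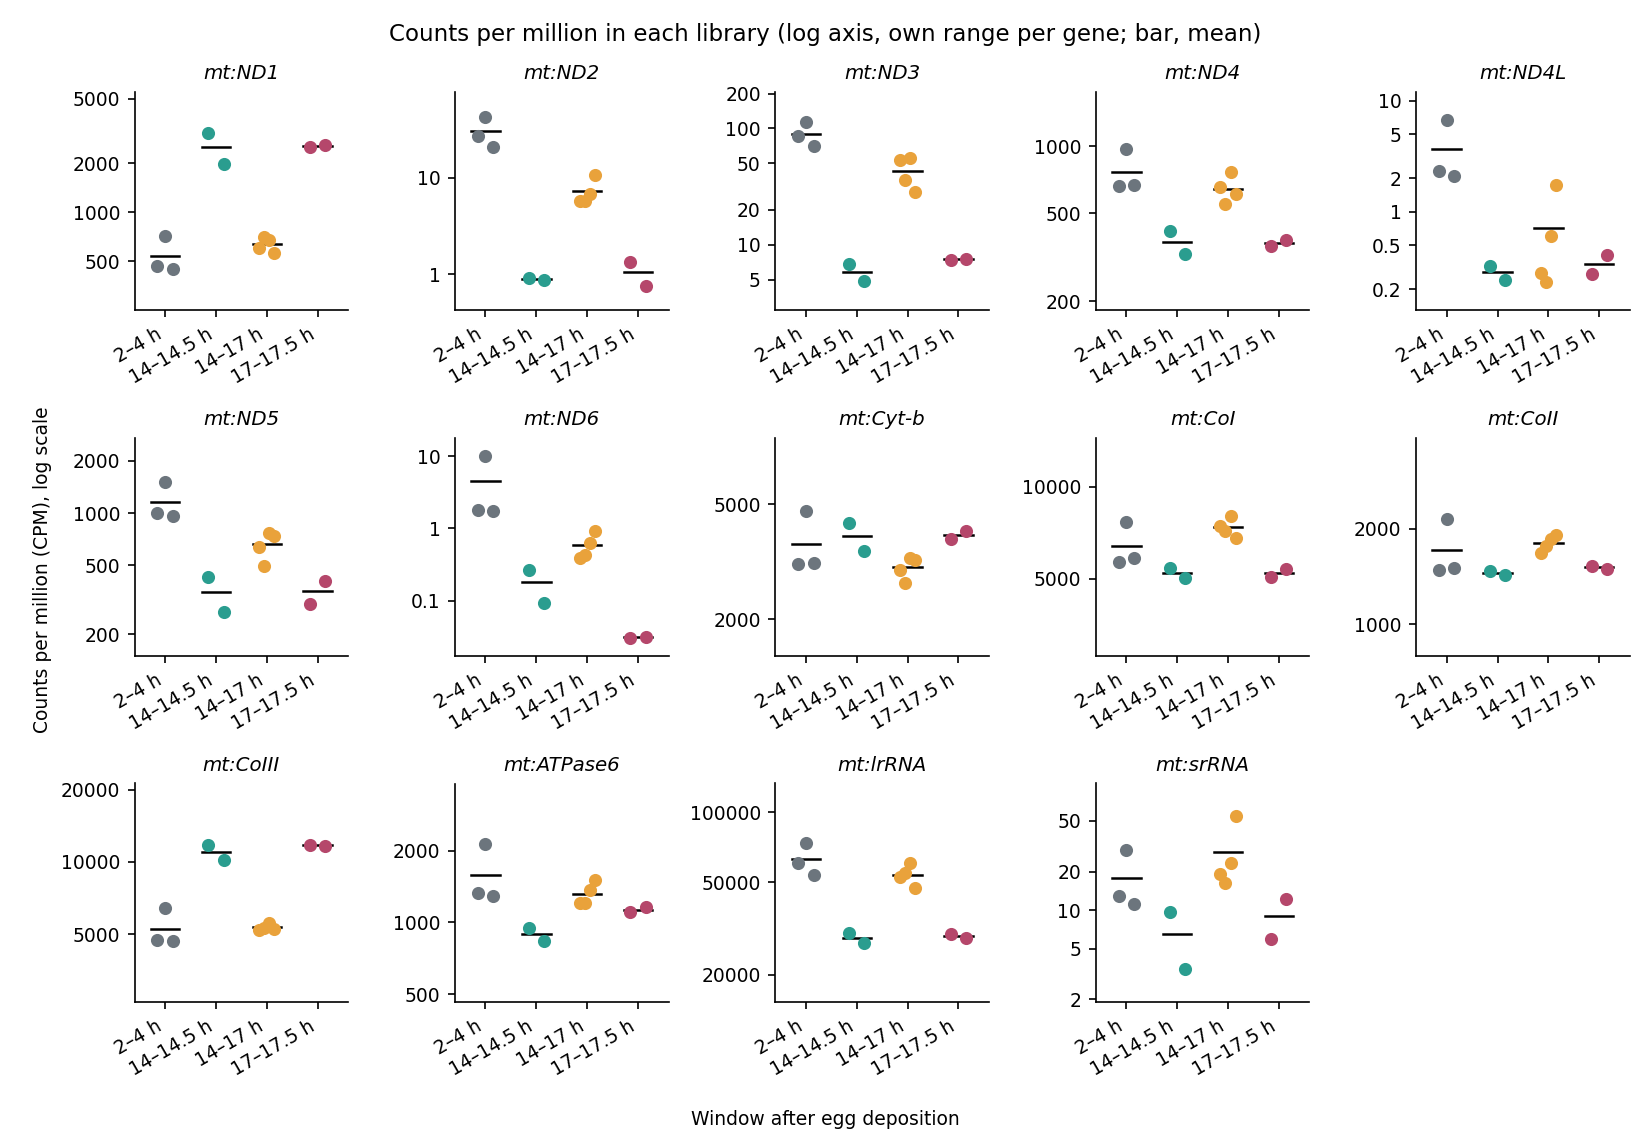
Level in each library (CPM, log axis) of the 14 measured mitochondrial genes, one panel per gene, with the windows in time order and a point per library. The 14-17 h libraries of mt:ND2, between 5.79 and 10.8 CPM, lie apart from the narrow windows on either side, between 0.752 and 1.32 CPM.

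mt:ND6 and mt:ND4L were the protein genes with the fewest reads. mt:ND6 had 56, 145 and 55 counts in the 2-4 h libraries, 9 and 3 counts in those of 14-14.5 h, 15, 13, 19 and 33 counts in those of 14-17 h, and 1 count in each of the 17-17.5 h libraries. As CPM, replicate 2 of 2-4 h stood apart at 10.02, with 1.81 and 1.73 in the other 2-4 h libraries. The pooled share of mt:ND6 at 17-17.5 h was 0.00936 of that at 2-4 h (exact 95% interval 0.00113 to 0.0341, counting error only), from 2 against 256 counts. At 14-14.5 h the ratio to 2-4 h was 0.0545 (0.0278 to 0.0969) and at 14-17 h it was 0.180 (0.138 to 0.232). mt:ND6 was called lower in all 3 comparisons (adjusted p = 0.00509, 0.00285 and 0.00187 by edgeR's quasi-likelihood test). Without replicate 2 of 14-14.5 h the call of that window was lost (adjusted p = 0.0756), and without replicate 2 of 2-4 h the log2 fold change was -3.29 in place of -4.40 at 14-14.5 h and -1.58 in place of -2.73 at 14-17 h.

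mt:ND4L ran at 2.33, 6.63 and 2.08 CPM at 2-4 h, 0.326 and 0.246 CPM at 14-14.5 h, 0.283, 0.233, 0.602 and 1.75 CPM at 14-17 h, and 0.277 and 0.408 CPM at 17-17.5 h. It lay below the 2-4 h range in every late library. mt:ND4L was 11.4-fold lower at 14-14.5 h (log2 fold change -3.51 ± 0.598, adjusted p = 0.000503), 7.93-fold lower at 17-17.5 h (-2.99 ± 0.702, adjusted p = 0.00608) and 4.58-fold lower at 14-17 h (-2.20 ± 0.648, adjusted p = 0.0088, edgeR's quasi-likelihood test) than at 2-4 h. The 17-17.5 h call was lost without replicate 1 of that window (-2.70, adjusted p = 0.0553), and the 14-17 h call without replicate 2 of 2-4 h (-1.61, adjusted p = 0.0589). Without replicate 4 of 14-17 h, its highest library, the value was -3.18, and without replicate 2 of 17-17.5 h the 17-17.5 h value was -3.58.

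mt:ND5 and mt:ND4 lie on the minus strand with mt:ND4L and had a higher TPM than it in every window. mt:ND5 stood at 1002, 1513 and 969 CPM at 2-4 h, 429.9 and 269 CPM at 14-14.5 h, 638, 494, 774 and 742 CPM at 14-17 h, and 299 and 409 CPM at 17-17.5 h. It fell in all 3 late windows against 2-4 h, by 1.65 ± 0.244 on the log2 scale at 14-14.5 h (adjusted p = 0.000201), 1.33 ± 0.267 at 17-17.5 h (adjusted p = 0.00293) and 0.74 ± 0.183 at 14-17 h (adjusted p = 0.00308, edgeR's quasi-likelihood test).

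mt:ND4 was at 659, 978 and 671 CPM at 2-4 h, 415 and 327 CPM at 14-14.5 h, 655, 550.1, 765 and 608 CPM at 14-17 h, and 355 and 376 CPM at 17-17.5 h. mt:ND4 fell 1.97-fold at 14-14.5 h (log2 fold change -0.98 ± 0.178, adjusted p = 0.000755) and 1.61-fold at 17-17.5 h (-0.69 ± 0.204, adjusted p = 0.0164, edgeR's quasi-likelihood test) against 2-4 h. Its 14-17 h and 2-4 h libraries overlapped and no call was made between them. Without replicate 1 of 17-17.5 h the call at 17-17.5 h was lost (-0.61, adjusted p = 0.102). Complex I as a list thus had 1 of 7 genes higher and 6 of 7 lower in each narrow late window against 2-4 h, and 0 higher and 5 lower at 14-17 h. The background of all genes called higher and lower was 46.7% and 43.3% for the first narrow window, 49.2% and 42.3% for the second and 48.2% and 42.4% for the 14-17 h libraries. With DESeq2 mt:ND1 was called higher at 14-17 h (0.37, adjusted p = 0.0258), and at an unadjusted p under 0.05 edgeR gave 0 higher as well. Adjacent genes of a strand differed widely in TPM: mt:ND4 exceeded mt:ND4L by 11.9 to 26.1 times in the 2-4 h libraries, 103 to 108 times in those of 14-14.5 h, 28.04 to 191 times in those of 14-17 h and 74.6 to 104 times in those of 17-17.5 h.

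mt:Cyt-b, the catalytic membrane subunit of complex III, was called in none of the comparisons with 2-4 h. Its level was 3107, 4734 and 3134 CPM at 2-4 h, 4298 and 3459 CPM at 14-14.5 h, 2968, 2677, 3268 and 3206 CPM at 14-17 h, and 3798 and 4037 CPM at 17-17.5 h. Replicate 2 of 2-4 h lay above all other libraries. It had a log2 fold change against 2-4 h of 0.16 at 14-14.5 h and 0.48 at 17-17.5 h that turned to -0.18 and -0.23 when the fit was scaled to the summed mitochondrial protein genes, and of -0.21 at 14-17 h. Without replicate 2 of 2-4 h the 17-17.5 h value was 0.48 and was called (adjusted p = 0.00245, edgeR's quasi-likelihood test). mt:ND6 lies just before it on the same strand, yet the TPM of mt:Cyt-b exceeded that of mt:ND6 by 164 to 629 times in the 2-4 h libraries, 5599 to 13053 times in those of 14-14.5 h, 1194 to 2676 times in those of 14-17 h and 42935 to 44747 times in those of 17-17.5 h, the last resting on the 1 count of mt:ND6 in each library.

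Complex IV, cytochrome c oxidase, passes electrons to oxygen, and its 3 mitochondrial subunits form the catalytic core. mt:CoIII stood at 4719, 6419 and 4704 CPM at 2-4 h, 11724 and 10191 CPM at 14-14.5 h, 5229, 5299, 5581 and 5274 CPM at 14-17 h, and 11770.5 and 11662 CPM at 17-17.5 h. The lowest of the narrow late libraries, at 10191 CPM, lay well above the highest of the others, at 6419 CPM. mt:CoIII rose 2.18-fold at 14-14.5 h (log2 fold change 1.12 ± 0.139, adjusted p = 6.27e-05) and 2.89-fold at 17-17.5 h (1.53 ± 0.167, adjusted p = 0.000132, edgeR's quasi-likelihood test) against 2-4 h. The 14-17 h libraries had a log2 fold change of 0.08 against 2-4 h, with -0.0058 when all 11 libraries were fitted together, and no call.

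mt:CoI, the subunit that holds the oxygen-binding centre, stood at 5695, 7664 and 5834 CPM at 2-4 h, 5422 and 5022 CPM at 14-14.5 h, 7472, 7169, 8049 and 6828 CPM at 14-17 h, and 5076 and 5401 CPM at 17-17.5 h. It was called higher at 14-17 h against 2-4 h by 1.199-fold (log2 fold change 0.26 ± 0.113, adjusted p = 0.0485, edgeR's quasi-likelihood test). That call stood in 6 of 16 alternative settings, with adjusted p between 0.00446 and 0.312, and was lost without replicate 1 of 2-4 h (0.21, adjusted p = 0.169), replicate 3 of 2-4 h (0.21, adjusted p = 0.184) or replicates 1 (0.18, adjusted p = 0.278), 2 (0.30, adjusted p = 0.0563) or 3 (0.15, adjusted p = 0.312) of 14-17 h. In the narrow windows mt:CoI was not called, with -0.22 at 14-14.5 h, and with 0.10 at 17-17.5 h that turned to -0.29 when only library totals set the scale.

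mt:CoII, which takes electrons from cytochrome c, stood at 1484, 2155 and 1503 CPM at 2-4 h, 1470.3 and 1424 CPM at 14-14.5 h, 1673, 1769, 1861 and 1906 CPM at 14-17 h, and 1529.9 and 1493 CPM at 17-17.5 h. No call was made in the 3 comparisons with 2-4 h. Without replicate 2 of 2-4 h, the highest library, mt:CoII was called higher at 14-17 h (log2 fold change 0.25, adjusted p = 0.0278) and at 17-17.5 h (0.17, adjusted p = 0.0399, edgeR's quasi-likelihood test), while its 17-17.5 h value with every library, 0.20, turned to -0.18 with library totals. mt:CoIII over mt:CoI in TPM was 1.87 ± 0.0365 at 2-4 h (SD, n = 3), 4.75 ± 0.213 at 14-14.5 h (n = 2), 1.65 ± 0.0835 at 14-17 h (n = 4) and 5.07 ± 0.255 at 17-17.5 h (n = 2). The ratio of mt:CoII to mt:CoI stayed between means of 0.675 and 0.795.

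mt:ATPase6, the proton channel subunit of ATP synthase (complex V), overlaps mt:CoIII by 1 base at its end. It stood at 1335, 2133 and 1286 CPM at 2-4 h, 947 and 834 CPM at 14-14.5 h, 1203, 1208, 1365 and 1515 CPM at 14-17 h, and 1109.8 and 1156 CPM at 17-17.5 h. mt:ATPase6 fell 1.69-fold at 14-14.5 h against 2-4 h (log2 fold change -0.75 ± 0.193, adjusted p = 0.0054, edgeR's quasi-likelihood test), a call lost without replicate 2 of 14-14.5 h (-0.76, adjusted p = 0.104) and with DESeq2 (-0.64, adjusted p = 0.0715). At 17-17.5 h and 14-17 h the log2 fold changes were -0.10 and -0.19 with no call. mt:ATPase6 over mt:CoIII in TPM was 0.367, 0.101, 0.307 and 0.120 on average in the 4 windows in time order, the lowest values being those of the narrow windows.

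Composition within the protein genes does not depend on the nuclear genes. mt:CoI made up 30.3%, 20.4%, 35.3% and 19.5% of the protein gene counts in the 4 windows in time order, and mt:CoIII 25.0%, 42.8%, 25.6% and 43.7%. mt:ND1 made up 2.53%, 9.73%, 3.05% and 9.56%. Summed by complex, the differences were smaller for complexes I and IV: complex I took 12.2%, 12.5%, 9.53% and 12.3%, and complex IV took 63.3%, 68.9%, 69.6% and 68.9%. Complex V, of which only mt:ATPase6 was measurable, took 7.38%, 3.48%, 6.34% and 4.23%. Plus-strand genes took 88.4%, 87.5%, 90.7% and 87.8%. mt:CoI and mt:CoIII, which belong to the same complex and lie on the same strand, thus changed places as the largest share.

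**Figure D3:**
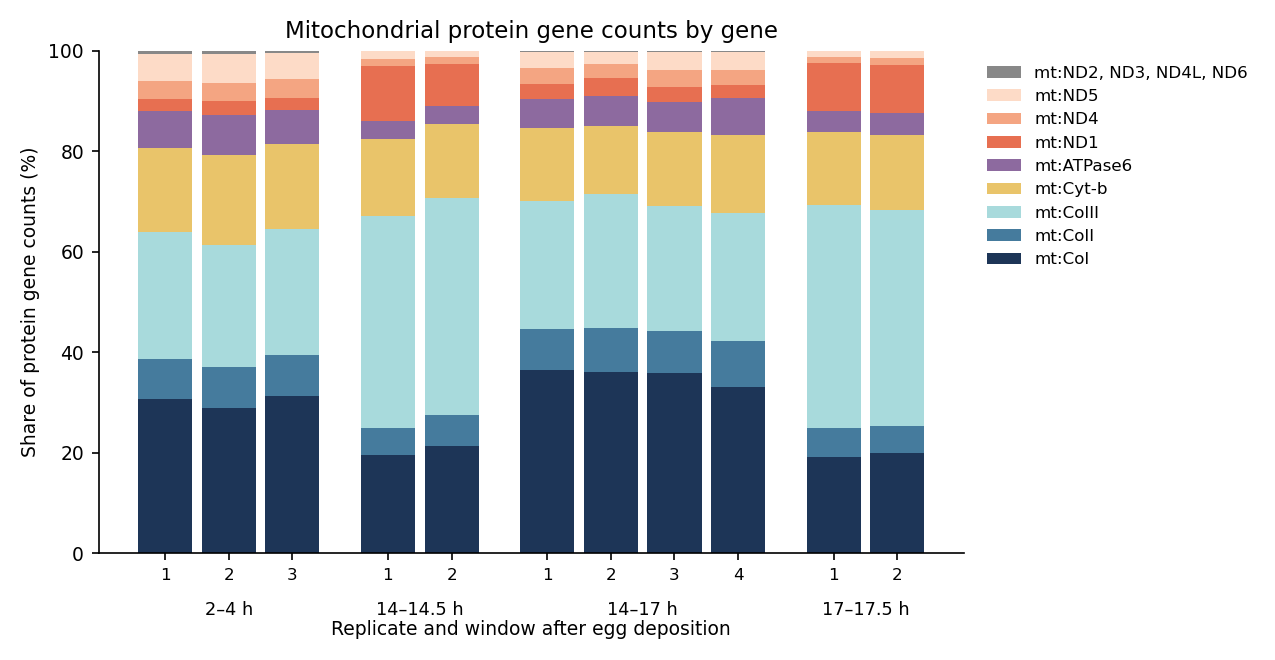
Share of the estimated counts of the mitochondrial protein genes taken by each gene (%), as a stacked bar per library with the windows in time order. mt:CoIII takes on average 42.8% and 43.7% in the narrow late windows, and 25.0% and 25.6% at 2-4 h and 14-17 h.

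The rRNAs of the mitochondrial ribosome behaved apart from each other in level. mt:lrRNA stood at 60719.6, 74016 and 53718 CPM at 2-4 h, 30285 and 27503 CPM at 14-14.5 h, 52563, 54949, 60305 and 47417 CPM at 14-17 h, and 30067 and 28928 CPM at 17-17.5 h. It fell 2.08-fold at 14-14.5 h (log2 fold change -1.05 ± 0.129, adjusted p = 6.07e-05) and 1.63-fold at 17-17.5 h (-0.71 ± 0.156, adjusted p = 0.00448, edgeR's quasi-likelihood test) against 2-4 h, in each case under all 14 alternative settings. These folds come from separate fits with their own TMM factors, and in CPM the narrow late windows overlapped. In the 14-17 h libraries its log2 fold change against 2-4 h was -0.17 with no call (adjusted p = 0.206), and -0.25 with a call (adjusted p = 0.0413) when all 11 libraries were fitted together. mt:ND1 follows mt:lrRNA on the same strand, and its TPM was 0.0130, 0.132, 0.0180 and 0.132 times that of mt:lrRNA in the 4 windows in time order.

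mt:srRNA, the partner of mt:lrRNA in the ribosome, was recovered at a far lower level. It stood at 12.98, 29.4 and 11.1 CPM at 2-4 h, 9.63 and 3.44 CPM at 14-14.5 h, 19.1, 16.4, 23.5 and 54.5 CPM at 14-17 h, and 5.90 and 12.2 CPM at 17-17.5 h. The TPM of mt:lrRNA exceeded that of mt:srRNA by 1312 to 2517 times in the 2-4 h libraries, 1640.1 and 4174 times in those of 14-14.5 h, 454 to 1747 times in those of 14-17 h and 2658 and 1234.4 times in those of 17-17.5 h. Within every window the library with the highest mt:srRNA level was also the one with the most nuclear rRNA, 9912 CPM at 2-4 h, 11605 CPM at 14-14.5 h, 46515 CPM at 14-17 h and 15869.6 CPM at 17-17.5 h, and the part of this carry-over in the mt:srRNA level was not tested. mt:srRNA was called lower at 14-14.5 h against 2-4 h (log2 fold change -1.31 ± 0.482, adjusted p = 0.0294, edgeR's quasi-likelihood test), a call that stood in 6 of 14 alternative settings. It was lost without replicate 2 of 2-4 h (-0.89, adjusted p = 0.0858) and without replicate 2 of 14-14.5 h (-0.85, adjusted p = 0.265), and without replicate 1 of 14-14.5 h the value was -2.28. At 17-17.5 h the value was -0.54 with no call, and -0.93 with a call (adjusted p = 0.0375) without replicate 3 of 2-4 h. At 14-17 h it was 0.79 with no call.

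Of the 11 protein genes tested at 17-17.5 h against 14-14.5 h, 3 were called higher and 0 lower, with 32.0% of 11267 genes called higher and 31.5% lower as the background. The count lower was also 0 at an unadjusted p under 0.05 in edgeR, and with DESeq2 and limma, and all 13 mitochondrial genes fitted had log2 fold changes between 0.12 and 0.62. mt:ND6 did not pass the count filter in this comparison, and its summed 2 counts at 17-17.5 h against 12 at 14-14.5 h gave a ratio of pooled shares of 0.172 (exact 95% interval 0.0186 to 0.771, counting error only). mt:ATPase6 was higher by 0.49 ± 0.0874 (adjusted p = 0.00381), mt:CoIII by 0.24 ± 0.0738 (adjusted p = 0.0309), mt:CoII by 0.21 ± 0.0526 (adjusted p = 0.0159) and mt:lrRNA by 0.17 ± 0.0524 (adjusted p = 0.0294) on the log2 scale with edgeR's quasi-likelihood test. With TPM in limma or with the mitochondrial protein genes as the scale, mt:CoII turned to -0.0051 and -0.0091 and mt:lrRNA to -0.04 in both, and no protein gene was called. Without replicate 1 of 14-14.5 h, mt:ND1, mt:ND3 and mt:Cyt-b were called as well (0.52, 0.76 and 0.34, adjusted p = 0.00746, 0.026 and 0.0384), and without replicate 1 of 17-17.5 h mt:CoI (0.26, adjusted p = 0.0334). Without replicate 2 of 14-14.5 h the calls of mt:CoII and mt:CoIII were lost (0.17 and 0.13, adjusted p = 0.0705 and 0.0688), and so they were without replicate 2 of 17-17.5 h (0.20 and 0.22, adjusted p = 0.0704 and 0.097).

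The 14-17 h window was set against the mean of the narrow windows that bound it. Its libraries lay outside the range of both narrow windows for 13 of the 14 measured genes, above it for 10 and below it for 3, and of all 11608 genes tested 22.4% lay above and 10.9% below in this way. By the test, 6 of 12 protein genes were called higher and 3 lower, with 31.5% and 29.1% of all genes as the background. The median log2 fold change was 0.50 for the protein genes and 0.03 for all genes, although the summed protein gene share of counts at 14-17 h lay below every narrow library.

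mt:ND2 was 6.87-fold higher at 14-17 h than the mean of the narrow windows (log2 fold change 2.78 ± 0.274, adjusted p = 5.69e-05) and mt:ND3 5.88-fold higher (2.56 ± 0.239, adjusted p = 4.38e-05, edgeR's quasi-likelihood test). mt:ND6 was called higher (adjusted p = 0.00208, edgeR), and its 80 counts at 14-17 h against 2 at 17-17.5 h gave a ratio of pooled shares of 19.2 (exact 95% interval 5.14 to 161). The 14-14.5 h libraries held 12 counts and differed less from 14-17 h. Their pooled share was 0.0545 of that at 2-4 h, where the 14-17 h share was 0.180 of it. mt:lrRNA was 1.65-fold higher (0.73 ± 0.0799, adjusted p = 9.75e-05), mt:ND4 was higher by 0.65 ± 0.126 (adjusted p = 0.00209) and mt:CoI by 0.34 ± 0.0772 on the log2 scale (adjusted p = 0.00477, edgeR's quasi-likelihood test). mt:srRNA was 3.32-fold higher (1.73 ± 0.489, adjusted p = 0.014), and mt:ND5 higher by 0.76 ± 0.209 (adjusted p = 0.0125, edgeR).

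The genes that were lower at 14-17 h included both that had risen in the narrow windows against 2-4 h. The same narrow libraries enter both comparisons, so this match is not a separate observation. mt:ND1 was 4.47-fold lower than their mean (log2 fold change -2.16 ± 0.139, adjusted p = 8.17e-06) and mt:CoIII 2.36-fold lower (-1.24 ± 0.0704, adjusted p = 4.45e-06, edgeR's quasi-likelihood test). mt:Cyt-b was lower by a log2 fold change of -0.52 ± 0.108 (adjusted p = 0.00306, edgeR), which became -0.03 with no call when scaled to the mitochondrial protein genes. mt:CoII, mt:ATPase6 and mt:ND4L were not called by edgeR's quasi-likelihood test, at 0.13, 0.24 and 1.05. Scaled to library totals, mt:CoII (0.29, adjusted p = 0.0024, edgeR) and mt:ATPase6 (0.40, adjusted p = 0.00408) were called higher, as they were with limma on TPM (0.29 and 0.40, adjusted p = 0.00951 and 0.0074). Scaled to the summed mitochondrial protein genes, edgeR called mt:CoII (0.61, adjusted p = 8.67e-05), mt:ATPase6 (0.73, adjusted p = 3.72e-05) and mt:ND4L (1.52, adjusted p = 0.0293) higher. DESeq2 called mt:ATPase6 as well (0.24, adjusted p = 0.0293). With edgeR mt:ATPase6 was also called without replicate 1 of 14-14.5 h (0.32, adjusted p = 0.0496) or replicate 2 of 14-17 h (0.30, adjusted p = 0.0382). Nuclear rRNA ran from 15646 to 46515 CPM at 14-17 h and from 4207 to 15869.6 CPM in the narrow windows, and estimated counts that were not whole made up 21.5% to 22.1% of the counts at 14-17 h and 19.7% to 19.9% in the narrow windows. Their part in the differences of the 14-17 h libraries was not tested.

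**Figure D4:**
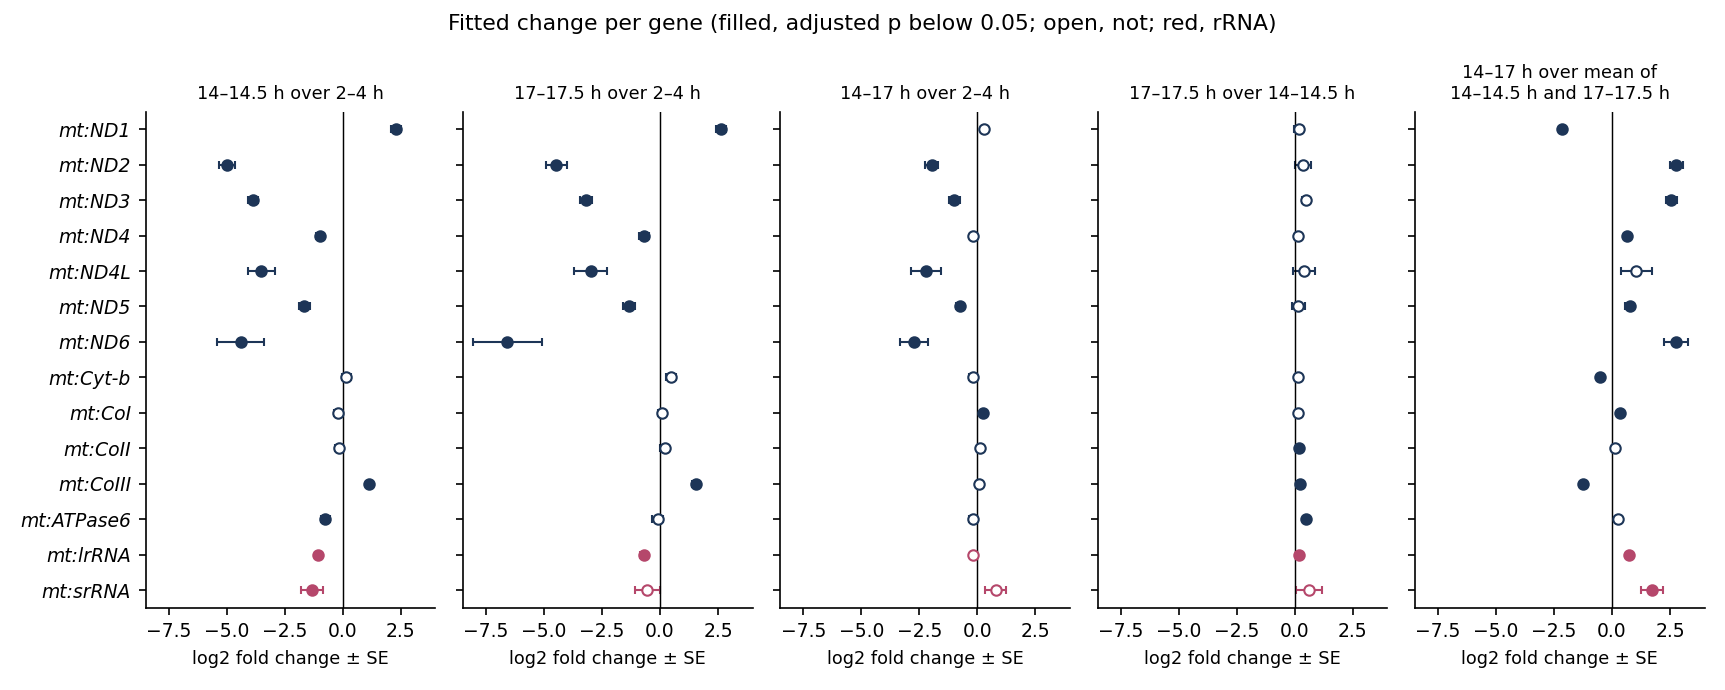
Log2 fold change with its SE from edgeR's quasi-likelihood test for the 14 measured mitochondrial genes in the 5 comparisons, filled where called and with the rRNAs in red. mt:ND1 and mt:CoIII are above 0 in both narrow late windows against 2-4 h and below 0 at 14-17 h against the narrow windows, while values near 0, such as mt:CoI at 17-17.5 h, change sign with the scaling and that of mt:ND6 rests on 1 count per 17-17.5 h library. The narrow libraries enter both kinds of comparison.

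To set nuclear genes aside, the fits were repeated with each library scaled to its summed mitochondrial protein genes. The protein genes called were then 2 higher and 7 lower at 14-14.5 h against 2-4 h, with 38.4% and 43.4% of all genes as the background, and 2 higher and 8 lower at 17-17.5 h against 2-4 h, with 37.8% and 47.7%. For 14-17 h against 2-4 h they were 0 higher and 5 lower, with 45.6% and 41.0%. At 17-17.5 h against 14-14.5 h there were 0 in both directions, with 19.6% and 30.6%, and at 14-17 h against the narrow windows 9 higher and 2 lower, with 61.2% and 6.31%. The counts of 0 were also 0 at an unadjusted p under 0.05. Such a scaling ties the genes to one another, since the abundant mt:CoIII moves the scale that the others are set against.

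The nuclear genes that transcribe, copy, process and translate the mitochondrial genome were followed as a list of 24, all tested in every comparison. Against 2-4 h, 11 were called higher and 10 lower at 14-17 h, at 14-14.5 h 9 and 10, and at 17-17.5 h 9 and 11. Of all genes, 48.2% were called higher and 42.4% lower for the 14-17 h libraries, 46.7% and 43.3% for those of 14-14.5 h, and 49.2% and 42.3% for those of 17-17.5 h, and in none of these 3 comparisons was the share of the list called higher above this background. PolrMT, the mitochondrial RNA polymerase, stood at 22.7, 18.2 and 22.999 CPM at 2-4 h, 38.98 and 41.1 CPM at 14-14.5 h, 48.6, 50.8, 50.7 and 41.4 CPM at 14-17 h, and 41.6 and 40.1 CPM at 17-17.5 h. It rose by 1.19 ± 0.134 at 14-17 h (adjusted p = 1.2e-05), 0.95 ± 0.151 at 14-14.5 h (adjusted p = 0.000323) and 1.32 ± 0.0989 at 17-17.5 h (adjusted p = 1.84e-05) on the log2 scale against 2-4 h by edgeR's quasi-likelihood test.

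TFAM, which packages mitochondrial DNA and helps to start transcription, went the other way. It stood at 116, 104 and 114 CPM at 2-4 h, 46.2 and 46.7 CPM at 14-14.5 h, 36.5, 39.7, 39.7 and 40.1 CPM at 14-17 h, and 37.0 and 37.9 CPM at 17-17.5 h. TFAM fell by 1.47 ± 0.100 at 14-17 h (adjusted p = 2.18e-07), 1.21 ± 0.130 at 14-14.5 h (adjusted p = 2.45e-05) and 1.19 ± 0.0644 at 17-17.5 h (adjusted p = 3.58e-06) on the log2 scale against 2-4 h by edgeR's quasi-likelihood test. At 14-17 h against 2-4 h the largest rises in the list were the translation elongation factor mEFTu1 (1.93), the mitochondrial polyA polymerase MTPAP (1.73) and SLIRP2 (1.38), a relative of the RNA-binding protein SLIRP. SLIRP2 had only 29, 9 and 25 counts in the 2-4 h libraries. The largest falls were PolG1, the catalytic subunit of the DNA polymerase (-2.18), the transcription factor mtTFB2 (-2.14) and the tRNA 3' end nuclease RNaseZ (-1.84).

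Set against the narrow windows at 14-17 h, PolrMT had a log2 fold change of 0.09 ± 0.0637 (adjusted p = 0.265, edgeR's quasi-likelihood test) and TFAM one of -0.25 ± 0.0544 (adjusted p = 0.00371, edgeR). Of the 68 nuclear genes for subunits of the respiratory chain and ATP synthase, 63 were tested at 17-17.5 h against 2-4 h, of which 55 were called higher and 4 lower, with a median log2 fold change of 1.09, where 49.2% and 42.3% of all genes were called and their median was 0.27. At 14-14.5 h against 2-4 h 46 were higher and 9 lower (median 0.63), beside 46.7% and 43.3% of all genes (median 0.11). The 14-17 h libraries had 56 higher and 1 lower against 2-4 h (median 0.80), beside 48.2% and 42.4% of all genes (median 0.19). The mitochondrial protein genes had a median below 0 in the same comparisons, with each gene counting equally. Their summed share of counts did not fall in the narrow windows. It averaged 2.56% at 14-14.5 h and 2.68% at 17-17.5 h, with 2.12% at 2-4 h, where replicate 2 reached 2.65%. At 14-17 h the mean share was 2.09%. Set against the narrow windows, the 14-17 h libraries had 22 of 64 nuclear subunits higher and 21 lower, with a median of 0.02. That was near the 31.5% and 29.1% of all genes with their median of 0.03. The mitochondrial protein genes had a median of 0.50 there, although their summed share of counts at 14-17 h lay below every narrow library.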

How the data were processed

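Embryo RNA was selected for polyA tails in consecutive oligo(dT) rounds, fragmented and sequenced. The authors computed an estimated count and a TPM value per gene and library with kallisto (the submitters' processing notes also name CASAVA 1.8.2 and the dm6 build), and deposited a table per library. The kallisto version is not given in the sources used here. The TPM was per gene span, from an effective length of the gene length minus 199 bases.

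FlyBase identifiers were matched to symbols for 17625 of 17753 genes. The estimated counts were rounded and fitted with edgeR 4.0.16 in R 4.3.3 (filterByExpr, TMM scaling, glmQLFit and glmQLFTest, two-sided, Benjamini-Hochberg adjustment over all genes tested), with the window as the only term and only the libraries compared in each fit. The SE given with an edgeR log2 fold change was derived from the test, as the size of the change over the square root of its F statistic. Shares, ratios and composition were described without a test. The steps were tested on simulated data. All mitochondrial protein and rRNA genes are named. Of the tRNA genes, those passing the filter and the 3 with the most counts were to be named, but none had a count. Of the nuclear factor list, PolrMT, TFAM and the 3 highest and 3 lowest called at 14-17 h against 2-4 h are named. The members and lists were chosen with earlier results of these data known.

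The alternatives were DESeq2 1.42.0, its size factors in edgeR (RLE), no filter on low counts, mitochondrial genes left out of the scaling, library totals only, all 11 libraries in one fit, the replicate number as a block, limma 3.58.1 on log2(TPM + 1) for genes over 0.5 TPM, and each library left out. Leaving an arm with 1 library assumes that it varies like the others. Scaling to the mitochondrial protein genes and TPM by exonic length were chosen after seeing the data. The libraries differed from each other by more than counting noise, so none was counted as a copy. No label ties equal replicate numbers of different windows together, and the p-values measure the spread between collections of pooled embryos. Tables were handled with Python 3.11.15, pandas 2.3.3 and numpy 2.4.6, and drawn with matplotlib 3.10.9.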

Additional observations from a re-analysis of the deposited data

Results flagged for a closer look

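At 14-17 h, 2 of the 35 values examined in that window had a library far from the rest, and chance alone flags about 5% of groups. In both it was replicate 4, which also held the most nuclear rRNA (46515 CPM). mt:ATPase6 took 7.33% of the protein gene counts there, with 5.87%, 6.07% and 6.10% in the other 14-17 h libraries, a gap of 0.843 of the whole range. The TPM ratio of mt:CoI over mt:ND2 was 389 in that library, and 0.830 of the range separated it from the nearest of the other 3, the highest of which was 794.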

How the results depend on the processing

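The text reports 87 results with 1209 values under alternatives. Of those for single genes other than mt:lrRNA 839 kept direction and call, 41 lost a call, 27 gained one and 42 changed sign, and of those for mt:lrRNA 6 lost a call, 1 gained one and 2 changed sign, and the cause was not tested. Depth limits mt:ND6 and mt:ND4L, as well as mt:ND2 in the narrow windows and SLIRP2 at 2-4 h, and the narrow windows have 2 libraries each. Scaled to the summed mitochondrial protein genes, the median of all genes moved to -0.25 at 14-14.5 h against 2-4 h (0.11 in the reported fit), -0.50 at 17-17.5 h against 2-4 h (0.27), -0.26 at 17-17.5 h against 14-14.5 h (-0.04) and 0.51 at 14-17 h against the narrow windows (0.03).

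For the count of protein genes called higher at 14-17 h against 2-4 h (1 in the reported fit), DESeq2 gave 2, and 0 came from leaving mitochondrial genes out of the scaling, from library totals, from all 11 libraries in one fit and from the mitochondrial scale, with 0 to 3 when a library was left out. In the fit of all 11 libraries mt:CoIII was -0.0058 and mt:lrRNA -0.25, and mt:CoIII ranged over -0.014 to 0.16 with a library left out.

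At 17-17.5 h against 14-14.5 h the count higher (3) was 1 with library totals, 0 with all 11 libraries, 0 with limma on TPM and 0 on the mitochondrial scale, and 1 to 6 with a library left out. There mt:lrRNA (0.17) was 0.17 with no filter (adjusted p = 0.0509, edgeR), 0.030 with totals, 0.18 with all 11 libraries, -0.036 with limma and -0.038 on the mitochondrial scale, and 0.091 to 0.26 with a library left out. mt:ND4 was -0.021 with totals. With limma, mt:CoI was -0.063, mt:CoII -0.0051, mt:ND5 -0.030, mt:Cyt-b -0.045, mt:ND1 -0.012 and mt:ND4 -0.079. On the mitochondrial scale, mt:CoI was -0.065, mt:CoII -0.0091, mt:ND5 -0.032, mt:Cyt-b -0.047, mt:ND1 -0.025 and mt:ND4 -0.081. With a library left out, mt:ND2 ranged over -0.029 to 0.69, mt:ND5 -0.15 to 0.55, mt:Cyt-b -0.0031 to 0.34, mt:ND1 -0.12 to 0.52, mt:ND4 -0.053 to 0.32 and mt:srRNA -0.035 to 1.56. Of all calls there, 3607 were higher and 3554 lower, against 2975 and 4409 with totals, 2643 and 4742 with limma and 2205 and 3446 on the mitochondrial scale.

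Against 2-4 h, mt:Cyt-b turned to -0.18 at 14-14.5 h and -0.23 at 17-17.5 h on the mitochondrial scale, and at 14-14.5 h ranged over -0.026 to 0.29 with a library left out. At 17-17.5 h mt:CoI was -0.17 with no filter, -0.056 without mitochondrial genes in the scaling, -0.29 with totals, -0.080 with all 11 libraries, -0.27 with limma and -0.63 on the mitochondrial scale, and mt:CoII was -0.066 with no filter, -0.18 with totals, -0.15 with limma and -0.52 on the mitochondrial scale. With a library left out they ranged over -0.25 to 0.18 and -0.076 to 0.23, the count higher over 2 to 4 and the count lower over 4 to 6.

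Deviations of same-numbered libraries correlated at 0.07, -0.05 and 0.15 between 14-17 h and 2-4 h. In the other window pairs they ran from -0.34 (14-17 h with 17-17.5 h, replicate 2) to 0.26 (17-17.5 h with 2-4 h, replicate 1). The correlations had no common sign, and they cannot show whether same-numbered libraries shared a collection. With the replicate block, mt:ND4L at 14-17 h against the narrow windows turned to -0.43 and the calls of mt:srRNA (1.02, adjusted p = 0.0812, edgeR) and mt:ND5 (0.50, adjusted p = 0.114) there were lost, as was that of mt:CoI at 14-17 h against 2-4 h (0.29, adjusted p = 0.0832). The block added calls for mt:ND1 at 14-17 h (0.35, adjusted p = 0.0452, edgeR) and mt:srRNA at 17-17.5 h (-0.83, adjusted p = 0.00439) against 2-4 h. Of all calls at 14-17 h against the narrow windows, 3652 were higher and 3374 lower, against 4851 and 2310 with totals, 4565 and 2251 with limma and 7104 and 733 on the mitochondrial scale.

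As a share of TPM, protein genes took 6.25%, 8.55%, 6.27% and 8.63% in time order and rRNAs 12.8%, 6.19%, 11.3% and 6.03%, and by exonic length 4.45%, 5.85%, 4.32% and 5.95%, and 9.09%, 4.24%, 7.81% and 4.16%.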
